A study of Mus musculus with 3 samples.

Results

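The genes described here are the insulin-like growth factor (IGF) binding proteins Igfbp2, Igfbp3, Igfbp4, Igfbp5, Igfbp6 and Igfbp7, the ligands Igf1 and Igf2, and the imprinted non-coding RNA H19. They were taken by gene symbol, and they are 9 of the 31053 genes in the expression matrix. They were chosen for how their levels varied across cell clusters and days in these same data, so their levels are given as a description and no test supports the choice. IGF1 and IGF2 are secreted growth factors that act through the receptor Igf1r, and most of both ligands in tissue is held by binding proteins. A binding protein can keep a ligand away from its receptor, store it on the matrix, or release it when proteases such as PAPP-A (Pappa) cut the carrier. In skin and gut, fibroblasts are a known source of IGF1, and the neighbouring epithelium carries the receptor. H19 and Igf2 are neighbours in an imprinted domain, where H19 is read from the maternal copy and Igf2 from the paternal copy.

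The tissue was distal colon with anus from C57Bl/6 mice, which were bought at 6 weeks of age. It holds the junction between the columnar lining of the colon and the squamous lining of the anus. The day 0 library came from 5 pooled mice with no treatment and normal histology. The day 7 and day 42 libraries came from 5 pooled mice each, which drank water with 3% DSS (dextran sulfate sodium, a sulfated polysaccharide that damages the colon epithelium) over 6 days. Day 7 was labelled severe colitis and day 42 was labelled recovered. There was 1 library per day, so variation between mice could not be measured and no test between days was possible. DSS, time and the library itself cannot be told apart.

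The libraries held 11037, 14376 and 11667 cells with 89241138, 151886649 and 72258639 molecules (unique molecular identifiers, UMIs) at days 0, 7 and 42, and median depths of 5708 to 6217.5 UMIs per cell. Cells with over 20% mitochondrial UMIs made up 32.1% of the day 0 library, 14.9% of day 7 and 12.97% of day 42. A barcode seen in more than 1 library occurred 139 times, and leaving out those 278 cells kept 46 of the 47 member differences past 2-fold in keratinocytes, fibroblasts, lymphatics, blood endothelium and colonocytes. Levels are UMIs summed over the cells of a type in a library, per 1000000 UMIs of those cells (CPM), with exact 95% Poisson intervals that cover counting error only. Days are compared as a log2 ratio with 10 CPM added to both sides. A member is counted as higher or lower where the ratio passes 2-fold and at least 1 of the libraries has 10 CPM. The UMIs are counted at the 3' end, and values of different genes are given side by side without a comparison of their levels.

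The members were concentrated in different cell types (heat map by type and day). Keratinocytes, the squamous cells, held 92.1% to 97.9% of all Igfbp2 UMIs of a library and 91.7% to 98.0% of all H19 UMIs. Fibroblasts made up 13.01%, 2.20% and 1.90% of the cells at days 0, 7 and 42, and held 81.2%, 88.7% and 81.6% of all Igf1 UMIs. The sources of some members differed between days. Keratinocytes held 56.4% of all Igfbp3 UMIs at day 0, 94.0% at day 7 and 97.1% at day 42, while the keratinocyte share of cells was 30.04%, 62.8% and 68.3%. Of all Igfbp7 UMIs, keratinocytes held 20.3%, 38.7% and 85.5%, fibroblasts held 62.4%, 10.2% and 6.55%, and blood endothelium held 7.92%, 46.1% and 5.65%, the last from 0.906%, 2.17% and 1.05% of the cells. All 6 keratinocyte markers, all 6 fibroblast markers, all 5 lymphatic markers and all 5 blood endothelial markers had UMIs in their types on every day. This does not check the authors' names, because markers had UMIs in other types too. The keratinocyte marker Krt14, for example, had 341 CPM in the endothelial cluster 16 at day 0.

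**Figure D1:**
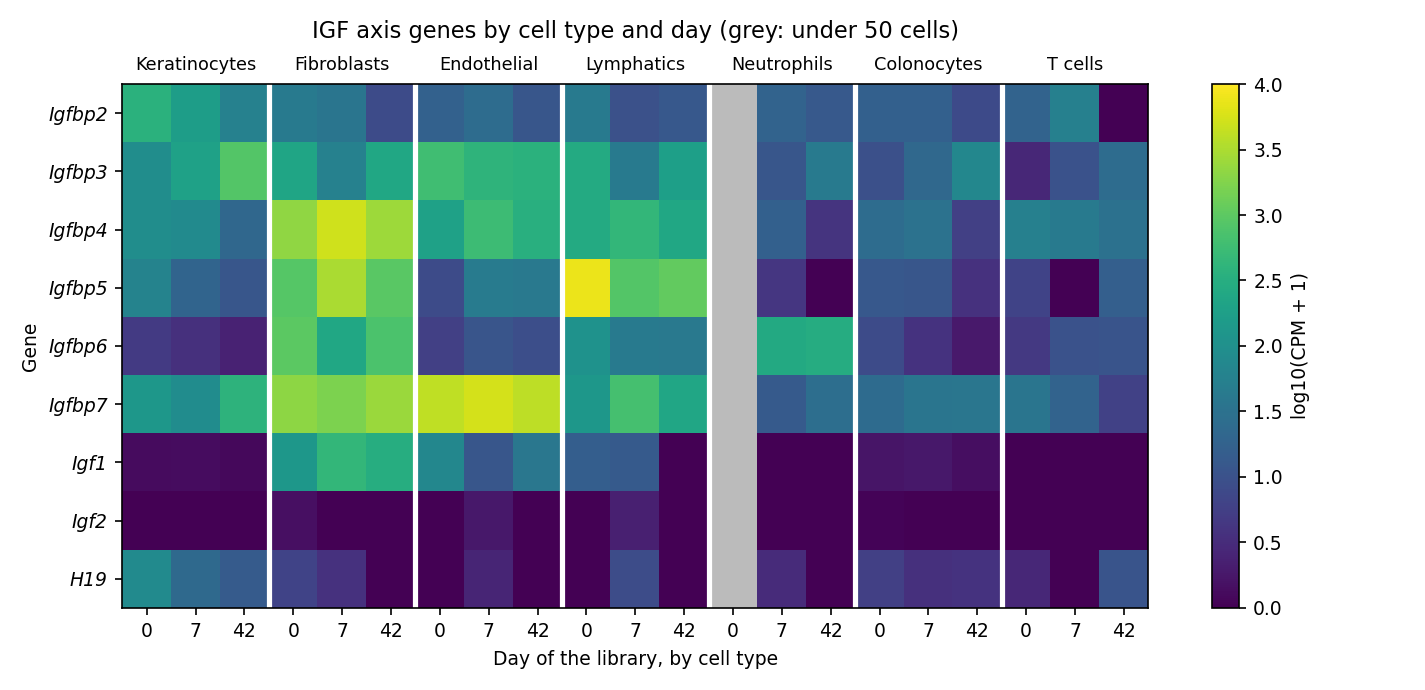
Heat map of the 9 genes (rows) in 7 cell types on days 0, 7 and 42 (columns), coloured by log10(CPM + 1) in 1 library per day. Igf1 is bright in fibroblasts, H19 in keratinocytes and Igfbp7 in endothelial cells, Igf2 is dark throughout, and grey marks the day 0 neutrophils, of which there were 5.

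In keratinocytes Igfbp3, the main IGF carrier of blood, had 90.5 CPM (87.3 to 93.7) at day 0, 195 CPM (193 to 197) at day 7 and 845 CPM (838 to 852) at day 42. Its level was thus lowest in untreated mice and highest in recovered mice, and no intervals overlapped. Against day 0 the log2 ratios were 1.03 (day 7) and 3.09 (day 42). With every cell thinned to 1000 UMIs, 5.82%, 10.5% and 34.6% of keratinocytes had an Igfbp3 UMI. Without thinning the shares were 19.3%, 30.9% and 59.5%, against 0.457%, 1.69% and 3.31% in T cells, taken as a background for free RNA, with shallower medians of 2064, 2260 and 1393 UMIs. Igfbp7, a matrix protein that binds IGFs weakly, had 132, 88.5 and 380 CPM in keratinocytes at days 0, 7 and 42. It was lowest at day 7 and highest at day 42, with log2 ratios of -0.53 and 1.46 against day 0. Beside these levels, the hair follicle and sebaceous list, with all 8 markers detected, summed to 3487, 4230 and 1237 CPM in keratinocytes, and the 5 neutrophil markers to 23.3, 1560 and 187 CPM. Their part in the member levels was not tested.

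Igfbp2, a carrier that favours IGF2, had 361 CPM (355 to 368) at day 0, 169 CPM (166 to 171) at day 7 and 56.9 CPM (55.0 to 58.9) at day 42 in keratinocytes. The order was the reverse of Igfbp3, with log2 ratios of -1.06 and -2.47 against day 0. Igfbp4, a carrier that mostly holds IGF back, had 92.0, 80.7 and 20.3 CPM, so that its difference lay between day 7 and day 42. Igfbp5, a carrier that also binds matrix, had 60.1, 18.3 and 10.8 CPM. Its log2 ratio was -1.31 at day 7 and -1.75 at day 42. Igfbp6, another carrier that favours IGF2, had at most 3.71 CPM in keratinocytes, Igf1 had at most 0.343 CPM and Igf2 had 1 UMI on each day. Some day 7 ratios depended on how cells were weighted: with the mean of CPM per cell they were 0.62 for Igfbp3, -0.80 for Igfbp2 and -0.67 for Igfbp5, none past 2-fold.

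Of the 9 members, 6 passed 10 CPM in keratinocytes. At day 7 against day 0, 1 was higher (Igfbp3; 1.38% of all 8378 genes were higher by the same rule) and 3 were lower (Igfbp2, Igfbp5 and H19; 1.17% of all genes). At day 42 against day 0, 2 were higher (Igfbp3 and Igfbp7; 2.79% of all genes) and 4 were lower (Igfbp2, Igfbp4, Igfbp5 and H19; 2.39% of all genes). Between days 7 and 42, 2 were higher at the later day (2.09% of all genes) and 2 were lower (1.72% of all genes). The median log2 ratio of the members that passed was -1.75 at day 42 against day 0, beside -0.03 over all genes, and nothing is read from these counts because the members were chosen on these days.

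The authors split keratinocytes into 10 clusters, and their mix differed strongly between days. Cluster 1 held 13.4%, 6.23% and 38.2% of keratinocytes at days 0, 7 and 42, and cluster 5 held 2.62%, 1.79% and 27.01%. Cluster 8 held 23.6%, 10.4% and 4.57%, and cluster 4 held 21.02%, 14.6% and 8.23%. The clusters differ in known marker genes. The basal keratins Krt5 and Krt14 were high in clusters 1, 3, 5, 9 and 17, and also in cluster 12 (Krt14 at 4453, 11781 and 17720 CPM on days 0, 7 and 42). Cluster 8 also had much Krt14 (4415, 5644 and 4992 CPM), with less Krt5 than these clusters (1619, 1757 and 1787 CPM). Cluster 4 was high in the differentiation keratin Krt10 (11244 CPM at day 0). Cluster 8 had most Krt79 (3219 CPM at day 0), a keratin of the upper hair follicle and gland ducts. Cluster 13 had most Scd1 (6919 CPM at day 0), a lipid enzyme abundant in sebaceous glands, and cluster 17 had most Sox9, a follicle factor.

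Igfbp3 and Igfbp2 had their highest levels in different clusters, though cluster 9 held both at day 0 (plot of levels within keratinocyte clusters). Igfbp3 in cluster 5 had 532, 671 and 1172 CPM at days 0, 7 and 42. In cluster 1 it had 155, 142 and 959 CPM, and in cluster 3 it had 155, 349 and 716 CPM. All 3 clusters were highest at day 42, with log2 ratios of 1.13, 2.55 and 2.13 against day 0. In the Scd1-high cluster 13 Igfbp3 had no UMI at day 0 and only 14.2 and 20.4 CPM later. In cluster 9 it was not higher after DSS, with 151, 69.9 and 123 CPM (log2 ratios -1.01 and -0.28). Over the 9 clusters with at least 50 cells on every day, Igfbp3 was more than 2-fold higher at day 42 than day 0 in 5 and lower in 0. The 5 include cluster 13, with its count of 0 at day 0, and cluster 12, whose cells differed between days.

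Igfbp2 in cluster 8 had 586, 480 and 595 CPM at days 0, 7 and 42, and in cluster 13 it had 459, 478 and 482 CPM. The log2 ratios against day 0 in these clusters lay between -0.28 and 0.07. In cluster 4 it had 459, 285 and 278 CPM, and in cluster 9 it had 457, 263 and 262 CPM, so both were lower after DSS by less than 2-fold. In cluster 1 Igfbp2 had 111, 12.9 and 6.94 CPM, and in cluster 3 it had 80.3, 14.1 and 10.8 CPM. These are the clusters where its difference passed 2-fold on both days, with log2 ratios of -2.40 and -2.84 in cluster 1. Igfbp4 also sat in clusters 8 and 13, where it had 226 to 299 CPM on all days.

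Cluster 12 was not the same population on each day. It held 51, 1668 and 152 cells with median depths of 1010.5 to 1948 UMIs, and its hair root keratins Krt25 and Krt71 had 46374 and 46368 CPM at day 0 and 19.3 and 8.34 CPM at day 7. Its Igfbp3 level of 57.1, 180 and 1010.2 CPM is therefore no like-for-like series. Leaving out cluster 12 kept all 14 keratinocyte differences past 2-fold.

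**Figure D2:**
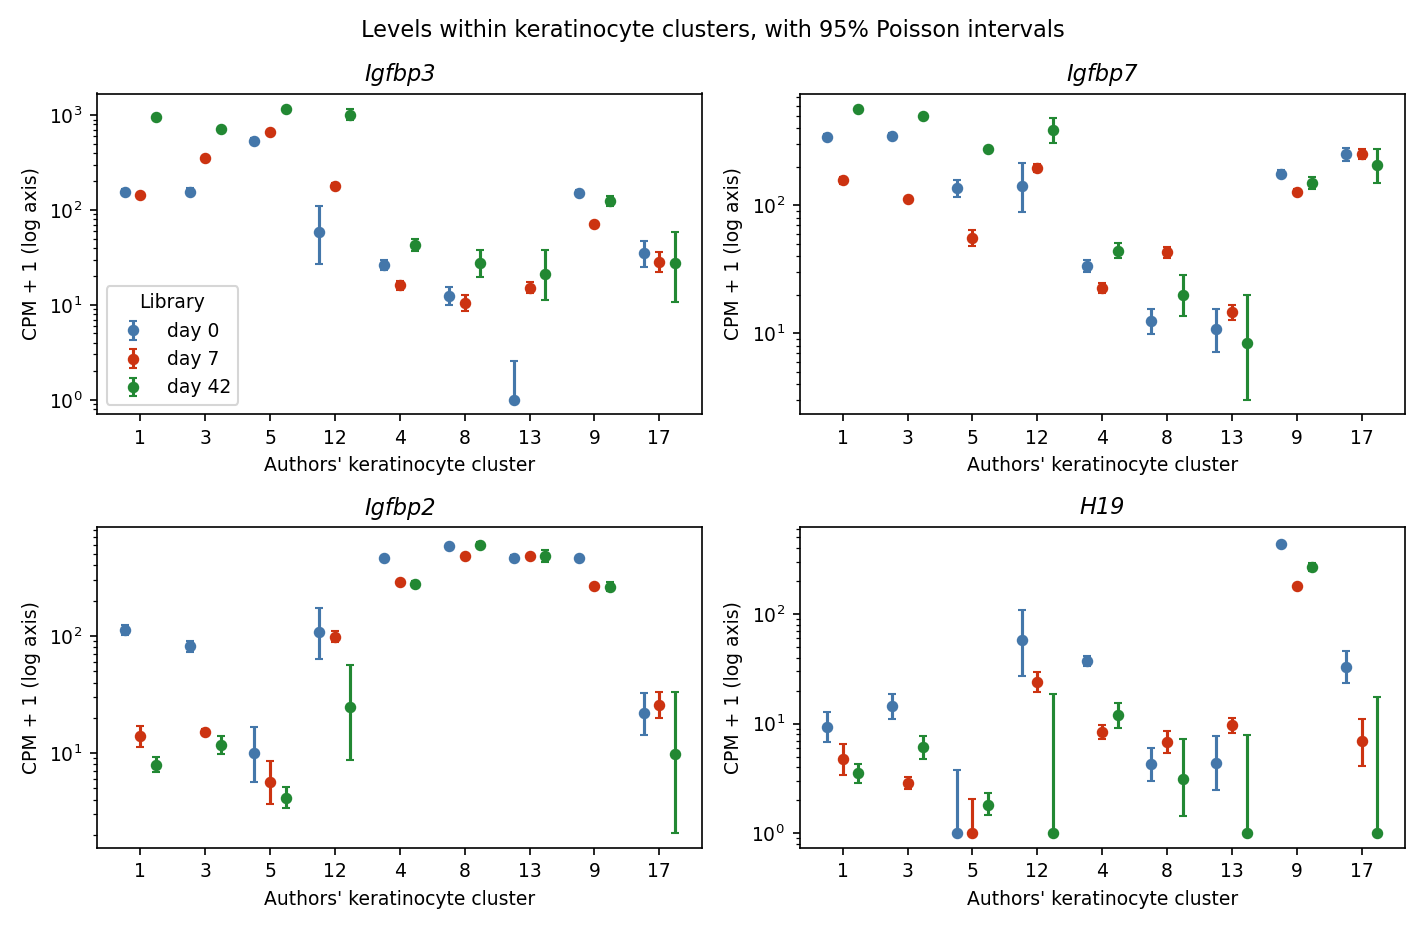
Levels of Igfbp3, Igfbp7, Igfbp2 and H19 in 9 keratinocyte clusters (x axis) as CPM + 1 on a log axis, 1 point per day's library with its 95% Poisson interval. Igfbp3 reaches 1172 CPM in cluster 5 at day 42, Igfbp2 stays between 459 and 595 CPM in clusters 8 and 13 on all days, and H19 is highest in cluster 9.

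Igfbp7 in clusters 1, 3 and 5 was lowest at day 7 and highest at day 42. It had 339, 155 and 562 CPM in cluster 1, 344, 111 and 501 CPM in cluster 3 and 135, 54.3 and 272 CPM in cluster 5. The day 7 values were more than 2-fold below day 0 in these 3 clusters, while cluster 8 was higher at day 7 (11.4, 41.9 and 18.99 CPM; log2 ratio 1.28). Of the blood endothelial markers, Plvap had 0, 7.90 and 0 CPM and Pecam1 had 2.76, 6.06 and 0 CPM in cluster 8. The other markers of that list are not given here, so no direction of the list is stated. The part of endothelial RNA in the Igfbp7 value was not tested. At day 42 no cluster but cluster 12 passed 2-fold above day 0. Igfbp5 was highest in clusters 9 and 17, with 234, 111 and 176 CPM in cluster 9 and 302, 51.1 and 177 CPM in cluster 17. Cluster 17 also differed between days in its hair root keratins, with 69.7, 2528 and 2134 CPM of Krt25 and 10.998, 2810 and 1939 CPM of Krt71, so its values are no like-for-like series either. Igfbp5 was lower at day 7 in 5 of the 8 clusters where it passed 10 CPM, and higher in 1, cluster 12.

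Giving each of the 9 clusters equal weight takes out the differences in their shares (bar plot of both weightings), but not those in the cells that make up a cluster, as in clusters 12 and 17. Igfbp3 at day 42 then had a log2 ratio of 1.79 in place of 3.09, and at day 7 of 0.37 in place of 1.03. Igfbp2 at day 42 had -0.43 in place of -2.47, Igfbp4 had -0.21 in place of -1.75 and Igfbp7 had 0.55 in place of 1.46. Igfbp5 and H19 at day 7 stayed past 2-fold, at -1.12 and -1.07. Under this weighting 0 members were higher (0.874% of all genes) and 2 were lower (0.839% of all genes) at day 7, and 1 was higher (0.718% of all genes) and 0 were lower (0.419% of all genes) at day 42. With clusters 12 and 17 left out, Igfbp3 had 1.51 at day 42 and 0.29 at day 7, and Igfbp5 and H19 each had -1.06 at day 7. Over those 7 clusters 0 members were higher (0.69% of all genes) and 2 were lower (0.726% of all genes) at day 7, and 1 was higher (0.605% of all genes) and 0 were lower (0.363% of all genes) at day 42.

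**Figure D3:**
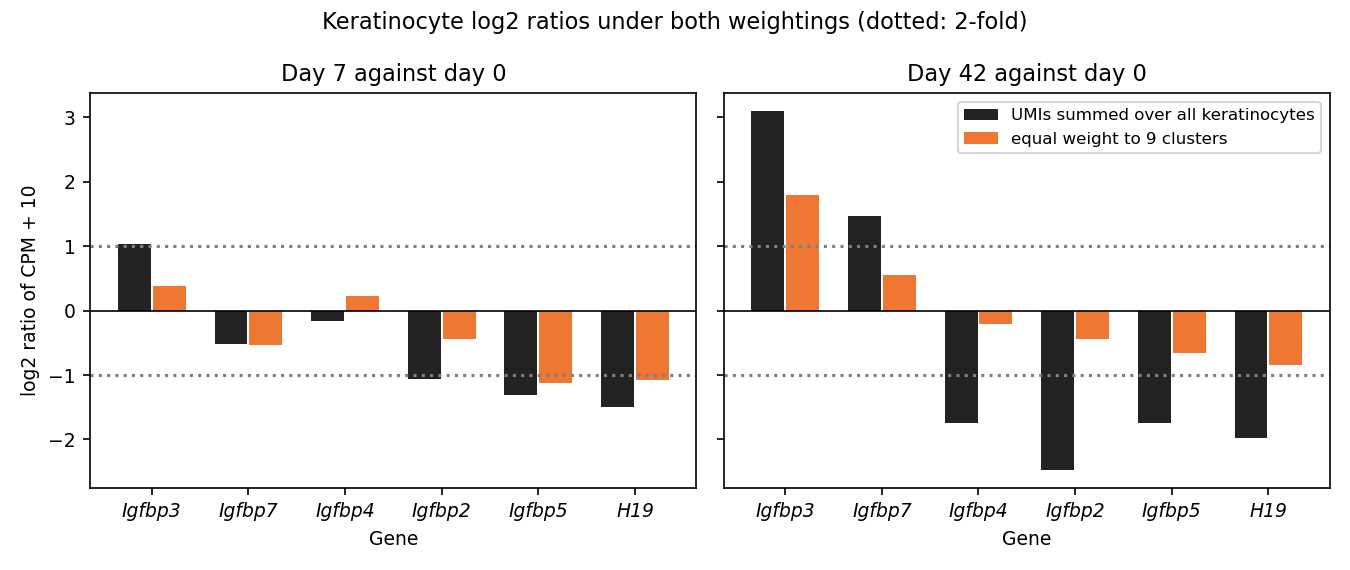
Log2 ratios of CPM + 10 in keratinocytes at day 7 and day 42 against day 0, as black bars for UMIs summed over all keratinocytes and orange bars for equal weight to 9 clusters, with 2-fold dotted. Igfbp3 at day 42 passes 2-fold under both (3.09 and 1.79), and Igfbp2 at day 42 does so only in the summed UMIs.

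H19, the non-coding RNA that neighbours Igf2 and hosts the microRNA miR-675, had 80.4 CPM (77.4 to 83.5) at day 0, 21.9 CPM (21.1 to 22.7) at day 7 and 12.9 CPM (11.98 to 13.8) at day 42 in keratinocytes. The log2 ratios against day 0 were -1.50 and -1.98. Its UMIs came mainly from cluster 9, with 437 CPM (419 to 455) at day 0, 177 CPM (170 to 184) at day 7 and 266 CPM (244 to 288) at day 42. Every other keratinocyte cluster had at most 57.1 CPM. Cluster 9 was thus lower on both later days, past 2-fold at day 7 (log2 ratio -1.26) and not at day 42 (-0.70). Thinned to 1000 UMIs, 22.8%, 13.4% and 18.9% of cluster 9 cells had an H19 UMI. The 10 cells with most H19 UMIs held 9.85% to 16.96% of the cluster's UMIs. The gene lies at chr7:142575529-142578143 on the minus strand (GRCm38), 72622 bases from Igf2. The mature miR-675 sequences inside it are shown because they are its processed products, with the seed (bases 2 to 8) in capitals; they are RefSeq entries, and these libraries did not measure mature microRNAs.
mmu-miR-675-5p: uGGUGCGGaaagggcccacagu
mmu-miR-675-3p: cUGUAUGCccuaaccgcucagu
The seeds of the arms differ. In the whole libraries of days 0, 7 and 42, H19 had 2983, 2868 and 785 UMIs. Igf2 was close to undetected, with 8, 4 and 1 UMIs. In cluster 9 Igf2 had 0.196 CPM at day 0 and no UMI on the later days.

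Other imprinted growth genes give a setting for H19. Of the 11 on the list, 2 (Dlk1 and Nnat) were under 10 CPM in every type and day. In keratinocytes 3 passed 10 CPM at day 42 against day 0, of which 0 were higher (2.79% of all genes) and 1 was lower (2.39% of all genes). That gene was Plagl1, a zinc finger factor of the imprinted network, with 48.2, 25.5 and 13.4 CPM at days 0, 7 and 42. These are sums over all keratinocytes, whose cluster mix differed between days, and the part of that mix was not tested. In fibroblasts 6 passed and none was past 2-fold at day 7 (3.12% of all genes higher and 2.66% lower) or at day 42 (1.85% higher and 1.22% lower) against day 0, and the imprinted RNA Meg3 had 328, 285 and 231 CPM there.

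In fibroblasts the carriers parted ways at day 7 (plot of fibroblast levels by day). Igfbp4 had 2173 CPM (2137 to 2209) at day 0, 5146 CPM (5043 to 5252) at day 7 and 2549 CPM (2431 to 2672) at day 42. Igfbp5 had 895 CPM (872 to 918), 3104 CPM (3023 to 3185) and 940 CPM (869 to 1015). Both were highest at day 7, with log2 ratios of 1.24 and 1.78, and close to day 0 at day 42, with 0.23 and 0.07. Igf1, the ligand, had 129 CPM (121 to 138), 444 CPM (414 to 476) and 305 CPM (265 to 349), so it was highest at day 7 and was still above day 0 at day 42. Its log2 ratios were 1.71 and 1.18.

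Igfbp6, in contrast, was lowest at day 7 in fibroblasts. It had 980 CPM (956 to 1005) at day 0, 240 CPM (218 to 263) at day 7 and 730 CPM (667 to 796) at day 42, a log2 ratio of -1.99 at day 7 and -0.42 at day 42. Igfbp3 had 220, 56.8 and 241 CPM, with -1.78 at day 7 and 0.13 at day 42. Both carriers were lowest at day 7 and near day 0 again at day 42. Igfbp7 had 2111, 1636 and 2473 CPM and stayed within 2-fold on every day.

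**Figure D4:**
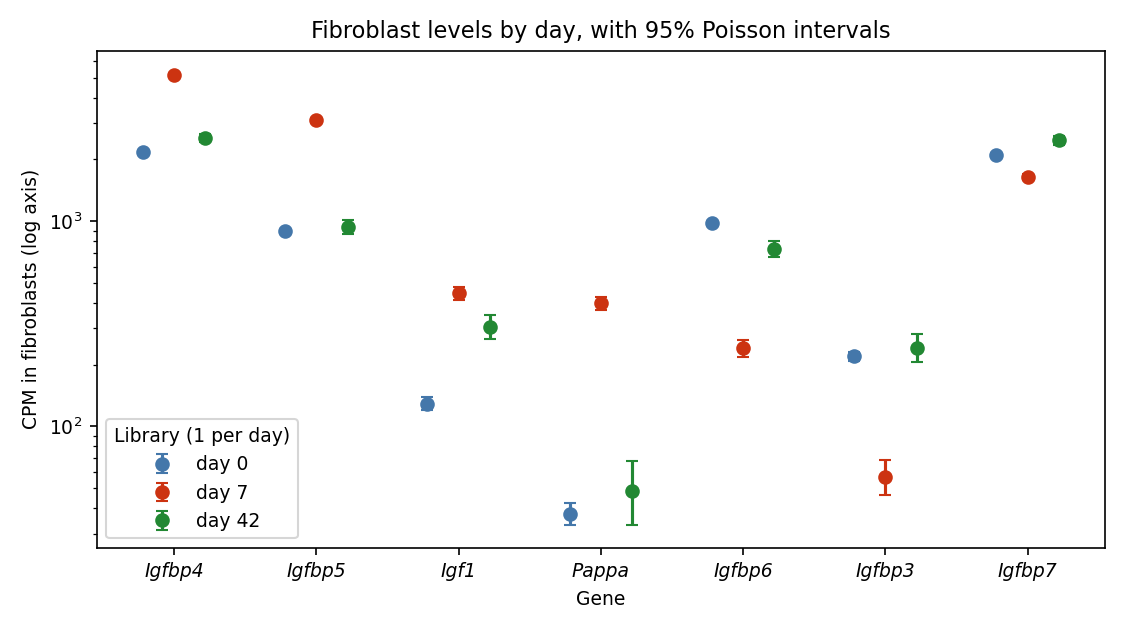
Levels in fibroblasts at days 0, 7 and 42 as CPM on a log axis for 6 members and Pappa, 1 point per library with its 95% Poisson interval (some are smaller than the point). Igfbp4, Igfbp5, Igf1 and Pappa are highest at day 7, and Igfbp6 and Igfbp3 are lowest at day 7.

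Of the 9 members, 7 passed 10 CPM in fibroblasts. At day 7 against day 0, 3 were higher (3.12% of all 9487 genes) and 2 were lower (2.66% of all genes). At day 42 against day 0, 1 was higher, Igf1 (1.85% of all genes), and 1 was lower, Igfbp2 (1.22% of all genes). The Igfbp2 value rested on 5 UMIs at day 42, and its log2 ratio of -1.61 became -0.14 without the cells with the highest doublet scores. Between days 7 and 42, 2 were higher at the later day (2.07% of all genes) and 3 were lower (2.66% of all genes).

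The shares of fibroblasts with a UMI were in part in another order than the CPM. Thinned to 1000 UMIs, Igfbp5 was found in 38.4%, 59.7% and 39.4% of fibroblasts at days 0, 7 and 42, and Igfbp4 in 70.5%, 78.4% and 67.5%. Igf1 was found in 11.6%, 21.2% and 21.7%, and Igfbp6 in 53.7%, 13.1% and 40.9%. Igfbp5 and Igfbp6 had the same order of days in both measures, while the share for Igfbp4 was lowest at day 42 and that for Igf1 was about as high at day 42 as at day 7. A few cells weighed heavily at day 7: the 10 cells with most UMIs held 15.6% of the Igfbp4, 28.0% of the Igfbp5 and 34.8% of the Igf1 UMIs of the 316 fibroblasts. Without such cells the day 7 log2 ratios were 1.12, 1.54 and 1.40, still past 2-fold, and the day 42 ratio of Igf1 was 1.003.

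Markers of other cells also differed between days in the fibroblasts. Summed over 5 neutrophil markers they were 5.81, 2974 and 442 CPM at days 0, 7 and 42, and over 6 keratinocyte markers 1303, 2045 and 4251 CPM. Summed fibroblast markers were 27750, 27645 and 24812 CPM. The smooth muscle and pericyte list, detected in full on every day, was 407, 424 and 1144 CPM. Their part in the member levels was not tested.

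The promoters of the carriers that were higher in day 7 fibroblasts, Igfbp4 and Igfbp5, and of Igfbp6, which was lower, are shown because these members differed together or in opposite directions. They are printed from 250 bases before to 50 after the start site (RefSeq, GRCm38.p6), with matches in capitals. They are Igfbp4 (chr11:99040994-99041293, plus strand), Igfbp5 (chr1:72874816-72875115, minus strand) and Igfbp6 (chr15:102143936-102144235, plus strand). The motifs searched on both strands were the TATA box TATAAA, the GC box GGGCGG, the CCAAT box CCAAT, and the AP-1 site TGACTCA or TGAGTCA.
Igfbp4: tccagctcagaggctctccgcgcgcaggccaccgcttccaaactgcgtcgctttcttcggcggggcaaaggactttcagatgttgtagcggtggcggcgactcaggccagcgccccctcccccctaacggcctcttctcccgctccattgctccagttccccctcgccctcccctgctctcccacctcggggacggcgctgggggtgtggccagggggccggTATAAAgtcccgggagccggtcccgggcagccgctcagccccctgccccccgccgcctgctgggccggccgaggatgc
Igfbp5: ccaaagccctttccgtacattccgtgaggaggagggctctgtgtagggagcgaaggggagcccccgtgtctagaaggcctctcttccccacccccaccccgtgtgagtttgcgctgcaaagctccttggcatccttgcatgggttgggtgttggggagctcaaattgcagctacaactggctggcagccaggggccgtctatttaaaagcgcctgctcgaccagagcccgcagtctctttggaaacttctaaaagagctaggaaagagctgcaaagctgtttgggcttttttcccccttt
Igfbp6: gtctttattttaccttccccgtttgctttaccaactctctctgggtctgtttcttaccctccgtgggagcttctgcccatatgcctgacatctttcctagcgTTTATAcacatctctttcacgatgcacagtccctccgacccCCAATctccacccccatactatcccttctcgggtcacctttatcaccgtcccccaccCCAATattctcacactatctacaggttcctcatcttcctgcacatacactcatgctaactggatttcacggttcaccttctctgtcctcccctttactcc
Igfbp4 held 1 match to the TATA box letters on the plus strand, and Igfbp5 held none of the 4 motifs. Igfbp6 held 1 match to the TATA box letters on the other strand and 2 to the CCAAT letters. Matches were counted at any position in the window. The Igfbp6 window ends before the GENCODE gene start at chr15:102144362, so it is not a like region to the others, whose windows overlap their genes. Of 32851 promoters of the same length, 13.6% held TATAAA, 35.7% GGGCGG, 37.4% CCAAT and 5.20% the AP-1 letters. Igfbp4 had 27 CpG dinucleotides, Igfbp5 had 10 and Igfbp6 had 8, beside a median of 7 over all promoters. Igfbp5 lies 5457 bases from Igfbp2 on chromosome 1, on the opposite strand, and Igfbp2 had 42.7, 34.4 and 7.30 CPM in fibroblasts, within 2-fold at day 7 (-0.25).

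Proteases that act on these carriers also differed between days. Pappa, which cuts Igfbp4 and Igfbp5, had 37.5 CPM (32.9 to 42.5) at day 0, 397 CPM (369 to 427) at day 7 and 48.2 CPM (33.1 to 67.6) at day 42 in fibroblasts. Its log2 ratio was 3.10 at day 7 and 0.29 at day 42, and the 10 cells with most UMIs held 33.8% of its day 7 UMIs. Pappa2, a related protease, had 42, 63 and 0 UMIs (log2 ratio 1.44 at day 7). Stc1, an inhibitor of PAPP-A, had 9.18, 44.8 and 124 CPM, and 10 cells held 74.4% and 76.5% of its UMIs on the later days. Ghr, the growth hormone receptor, had 146, 59.0 and 83.2 CPM and was the 1 lower gene of the list at day 7 (-1.18). Htra1, a secreted protease of the matrix, had 736, 372 and 711 CPM (-0.97 at day 7).

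In all, 13 of the 22 pathway genes passed 10 CPM in fibroblasts at day 7 against day 0, of which 3 were higher (3.12% of all genes) and 1 was lower (2.66% of all genes). Their median log2 ratio was 0.40, beside -0.06 over all genes. At day 42 against day 0, 12 passed, 1 was higher (Stc1; 1.85% of all genes) and 0 were lower (1.22% of all genes). Igf1r, the IGF1 receptor, stayed within 2-fold in fibroblasts, with 137, 101 and 143 CPM. In keratinocytes Igf1r had 67.0, 50.9 and 65.5 CPM, and 0 of 6 pathway genes were past 2-fold at day 7 (1.38% of all genes higher and 1.17% lower). At day 42, 1 of 8 was higher there (2.79% of all genes), Socs2, a feedback inhibitor of growth hormone signalling, with 5.41, 7.53 and 22.1 CPM. The part of the cluster mix in these keratinocyte sums was not tested. Of the list, 6 genes (Igfals, Igfbp1, Igfbpl1, Ins2, Igf2os and Igf2bp1) were under 10 CPM in every type and day.

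In lymphatic endothelium Igfbp5 had 7627 CPM (7253 to 8015) at day 0, 846 CPM (783 to 912) at day 7 and 1089 CPM (939 to 1255) at day 42. The day 0 level stood far above both later days, with log2 ratios of -3.16 and -2.80, the opposite of fibroblasts at day 7. An Igfbp5 UMI was found in 94.7%, 38.3% and 42.9% of the cells thinned to 1000 UMIs. These were 63, 190 and 84 cells, and the summed lymphatic markers were 24520, 38736 and 23818 CPM. Without the 10 cells with most Igfbp5 UMIs the log2 ratios were -3.31 and -3.50. Igfbp7 had 132, 660 and 230 CPM (log2 ratio 2.24 at day 7), and at day 0 the 10 top cells held 92.6% of its 27 UMIs. Igfbp3 had 274, 41.9 and 179 CPM (-2.45 at day 7). The neutrophil markers summed to 4.90, 2697 and 236 CPM in these cells, whose part was not tested.

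Of 7 members that passed in lymphatics, 1 was higher (7.57% of all genes) and 4 were lower (5.3% of all genes) at day 7 against day 0. At day 42 against day 0, 0 were higher (9.99% of all genes) and 4 were lower (7.51% of all genes), of which Igfbp2, Igfbp6 and Igf1 had at most 22 UMIs on either day. Of the pathway list 10 passed in lymphatics at day 7, with 0 past 2-fold (7.57% of all genes higher and 5.3% lower).

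In blood endothelium Igfbp7, known there as a vessel wall matrix protein, had 4158, 5487 and 3924 CPM at days 0, 7 and 42 and was within 2-fold on every day. Its share of cells with a UMI, thinned, was 90.6%, 86.6% and 80.8%. Igfbp3 had 595, 396 and 355 CPM. Igf1 had 71.2 CPM (48.0 to 102), 10.95 CPM (7.22 to 15.9) and 37.6 CPM (20.6 to 63.1), from 30, 27 and 14 UMIs. Its log2 ratio was -1.95 at day 7, where fibroblasts were higher. Igf1r was lower there too, with 140, 38.1 and 75.2 CPM (-1.64 at day 7). Neutrophil markers summed to 0, 2855 and 234 CPM and keratinocyte markers to 735, 1784 and 3749 CPM in these cells, whose part was not tested.

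Igfbp4 in blood endothelium depended on a small cluster. Over all cells it had 192, 555 and 330 CPM (log2 ratio 1.48 at day 7). In cluster 16, with 97, 290 and 113 cells, it had 186, 113 and 139 CPM, which gives -0.67. In cluster 27, with 3, 22 and 9 cells, it had 531, 7451 and 2795 CPM. Of the 5 blood endothelial markers, cluster 27 had Pecam1 at 796, 1684 and 1565 CPM and Cdh5 at 265, 909 and 484 CPM, from 2 Cdh5 UMIs at day 0. Plvap was at 0, 424 and 74.5 CPM there (1058, 1613 and 1517 CPM in cluster 16) and Kdr at 0, 87.6 and 0 CPM (440, 301 and 229 CPM in cluster 16). Flt1, the other marker of the list, is not given by cluster here. Over all blood endothelial cells it had 1492, 586 and 604 CPM. Igfbp5 had 3, 113 and 15 UMIs in endothelium (log2 ratio 1.71 at day 7, interval 0.63 to 2.51), of which 10 cells held 92.9% at day 7. Without such cells its ratio was 0.42. At day 7 against day 0, 2 members were higher (5.86% of all genes) and 1 was lower (5.94% of all genes), and at day 42 1 was higher (6.72% of all genes) and 0 were lower (6.73% of all genes).

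Igfbp6 had a second source at day 7. Neutrophils, which were 5, 1513 and 448 cells, had 271 CPM (255 to 287) at day 7 and 295 CPM (240 to 359) at day 42. They held 54.2% of all Igfbp6 UMIs of the day 7 library and 14.0% at day 42, while fibroblasts held 92.8%, 20.9% and 70.6% at days 0, 7 and 42. An Igfbp6 UMI was found in 43.4% of day 7 neutrophils (median 2585 UMIs), against 2.54% of day 7 T cells (median 2260 UMIs). Thinned to 1000 UMIs the share was 24.9% of 1423 neutrophils at day 7 and 13.3% of 45 at day 42, where 403 shallower cells were left out. The 6 fibroblast markers summed to 27.1 and 26.8 CPM in neutrophils. The 10 cells with most Igfbp6 UMIs held 5.36% of them at day 7. Of the 5 members that passed in neutrophils at day 42 against day 7, 1 was higher (6.41% of all genes; Igfbp3, from 14 UMIs) and 0 were lower (2.36% of all genes).

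No Igf1 UMI was detected in neutrophils. At day 7 this was 0 of 1513 cells, and 3 counts, the limit that a count of 0 allows, would be 0.198% of them. This limits cells with a UMI at this depth, not cells that express the gene. Macrophages had 11 Igf1 UMIs (28.0 CPM) at day 0 and none at day 7 or day 42. Igfbp6 in macrophages was 2.54 CPM at day 0 and 73.1 CPM at day 7, beside neutrophil markers that summed to 20.3 and 4645 CPM, whose part was not tested. In the muscle-like cells, which were 296, 41 and 24 cells, Igf1 had 101, 72.3 and 324 CPM and Igfbp5 had 664, 4408 and 1134 CPM.

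Igfbp3 in colonocytes, the columnar cells, had 8.34, 21.9 and 69.0 CPM at days 0, 7 and 42 and Igfbp4 had 24.9, 31.7 and 4.64 CPM. At day 42 against day 0 these were the 1 higher (1.29% of all genes) and the 1 lower (0.462% of all genes) of 5 members that passed. T cells had 1.81, 9.04 and 25.1 CPM of Igfbp3 on the same days, from 1, 3 and 5 UMIs, and cells the authors left unnamed had 20.4, 78.9 and 248 CPM. Keratinocyte markers summed to 813, 2278 and 1715 CPM in colonocytes. Without the 5% of cells with the highest doublet scores the log2 ratio of Igfbp3 in colonocytes was 0.91 in place of 2.11, and that of Igfbp4 was -0.18 in place of -1.26. In secretory colonocytes, the mucus-making columnar cells (479, 35 and 179 cells), Igfbp3 had 6.83, 13.8 and 155 CPM, with a log2 ratio of 3.30 at day 42 against day 0. Igfbp7 there had 17.6, 4.61 and 54.6 CPM (1.22 at day 42), and the day 7 values of both rest on 3 UMIs or fewer. Keratinocyte markers in secretory colonocytes summed to 781 CPM at day 0 and 2444 CPM at day 42, whose part was not tested.

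Members were also set against each other in single cells thinned to 1000 UMIs. In fibroblasts with an Igfbp5 UMI, 88.1%, 86.4% and 86.3% also had Igfbp4 at days 0, 7 and 42, against 59.5%, 66.7% and 55.3% of those without. Igfbp6 was found in 11.8% of day 7 fibroblasts with Igfbp5 and 14.9% of those without, with overlapping intervals. In keratinocytes with an Igfbp3 UMI, 11.5%, 3.88% and 0.734% had Igfbp2, against 24.98%, 16.2% and 7.98% of those without. The intervals did not overlap on any of the 3 days, and these shares cover all clusters. Within cluster 9, H19 was found in 41.2%, 23.1% and 32.3% of cells with Igfbp5 and in 19.2%, 12.4% and 16.8% of cells without. The intervals did not overlap on any day, with 31.3% to 51.7% and 15.9% to 23.0% at day 0, 14.9% to 33.1% and 10.4% to 14.8% at day 7, and 20.9% to 45.3% and 13.2% to 20.8% at day 42. The last 2 pairs of bounds nearly touched. Against Igfbp2, H19 was found in 31.2%, 13.5% and 17.4% of cluster 9 cells with it and in 18.9%, 13.4% and 19.2% of those without, and these intervals overlapped at days 7 and 42.

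Genes whose levels followed each member most closely were found across 60 units, each an authors' cluster on a day with at least 50 cells, among 8557 genes. The units share libraries and depth, so the Pearson correlations of log2(CPM + 10) are a description. Igfbp3 was most like Ecm1 (r = 0.79), Emp1 (0.79) and Slc35e4 (0.77). Igfbp2 was most like Apoc1 (0.85), Clca3a2 (0.83) and Ndufa4l2 (0.79). Igfbp4 was most like Tgfbr3 (0.85), Angptl2 (0.83) and Fgfr1 (0.82). Ranking by Spearman correlation kept 2 of the 3 names for each of these carriers and 0 of 3 for the other members. H19 was most like Wnt3 (0.79), Smoc2 (0.75) and Fzd10 (0.74), and Igf1 was most like Mxra8 (0.93), Bicc1 (0.93) and Gm13889 (0.92). The nearest genes were Fndc1 (0.87), Abi3bp (0.86) and Nsg1 (0.85) for Igfbp5, Pla1a (0.85), Selenon (0.85) and Snai1 (0.84) for Igfbp6, and Cavin3 (0.87), Wwtr1 (0.84) and Ppic (0.84) for Igfbp7. For Igf2, which had 8, 4 and 1 UMIs in the libraries, the nearest were Sema3a (0.72), Reep1 (0.66) and Nexn (0.64). Among the members, Igfbp4 and Igfbp5 had r = 0.74, Igfbp3 and Igfbp7 had 0.68, Igfbp2 and Igfbp3 had -0.26, and Igf2 and H19 had 0.04.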

How the data were processed

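Single-cell 3' libraries of 3 pooled samples were made by the authors on the 10x Chromium platform, per the labels' protocols. Cell Ranger 3.0.2 and the build mm10 are named in the submitters' processing notes; the annotation release, the filter on cells and the method of clustering are not given in the sources used here. The deposited matrix holds whole-number counts (UMIs), not normalized, of 37080 cells, each with a day, 1 of 29 cluster numbers and 1 of 14 type names from the authors. The authors' deposited size factor, a ratio of each cell's total to a common total, was used only to check the order of cells.

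From the counts, UMIs were summed by type, cluster and day (pandas 2.3.3 and numpy 2.4.6 in Python 3.11.15) and given as CPM with exact 95% Poisson intervals; shares of cells have exact Clopper-Pearson intervals. Both cover counting error only. A type was compared between days where each had 50 or more of its cells, with 10 CPM added, and no p-value was computed because each day had 1 library. Over all genes tested the median log2 ratio lay between -0.06 and 0.08 in keratinocytes, fibroblasts, lymphatics and blood endothelium. On simulated Poisson counts with 200 changed genes, the counting interval held the true ratio for 98% to 99.1% of changed genes. The interval assumes Poisson counts too, so this checks the calculation only. It does not show that the intervals hold for the spread between cells or mice. Scrublet (scanpy 1.11.5) marked 3.81% of the day 0, none of the day 7 and 2.29% of the day 42 cells, so it had not worked at day 7; doublets were kept, and an alternative dropped the top 5% of scores per library.

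The named genes are all 9 members, a list of 22 IGF pathway genes, a list of 11 imprinted growth genes, and for each member the 3 genes with the highest correlation. The members and lists were chosen with earlier results of these data known. Of the members, 9 matched GENCODE M21 (GRCm38) by gene ID, used for coordinates, and 8 had a RefSeq promoter entry. Alternatives were a cell filter (1000 or more UMIs, 500 or more genes, 20% or less mitochondrial UMIs), that doublet cut-off, size factors by median of ratios, a library total free of mitochondrial and ribosomal genes, averaging CPM over cells, equal weight to clusters, dropping the top 10 cells of each gene, 1 CPM added, counting members under 10 CPM, Spearman correlation, and thinning to 1000 UMIs. Leaving out shared barcodes, cluster 12, cluster 27, or clusters 12 and 17 under equal weight was chosen after seeing the data.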

Additional observations from a re-analysis of the deposited data

Results flagged for a closer look

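These results stood out because the same contrast against day 0 went in opposite directions, past 2-fold, in a pair of cell types. Only keratinocytes, fibroblasts, lymphatics, blood endothelium and colonocytes were searched. The counting interval had to keep the direction in both types, and only the pair furthest apart is given for each gene and contrast. None of the differences was tested, since each day had 1 library.

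Igf1 at day 7 against day 0 had a log2 ratio of 1.71 in fibroblasts and -1.95 in blood endothelium, a difference of 3.66. Igfbp3 at day 7 had 1.03 in keratinocytes and -2.45 in lymphatics, a difference of 3.48; the keratinocyte side fell under 2-fold with equal weight to clusters (0.37), with the mean of CPM per cell (0.62) and with totals without mitochondrial and ribosomal genes (0.98). Igfbp5 at day 7 had 1.78 in fibroblasts and -3.16 in lymphatics, a difference of 4.94. Igfbp5 at day 42 had 1.55 in blood endothelium and -2.80 in lymphatics, a difference of 4.35; the endothelial side rested on 3 UMIs at day 0 and 15 at day 42, all in 10 or fewer cells.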

How the results depend on the processing

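Alternatives of the log2 ratios were run for keratinocytes, fibroblasts, lymphatics, blood endothelium and colonocytes, and not for secretory colonocytes, neutrophils, macrophages, T cells or unnamed cells. Over those 5 types the filter on cells and median-of-ratios size factors each kept all 47 member differences past 2-fold, and totals without mitochondrial and ribosomal genes and removal of shared barcodes each kept 46 (the totals put 1 other past 2-fold). The mean of CPM per cell kept 37 and put 13 others past 2-fold, leaving out the 10 top cells kept 38 and added 9, the doublet scores kept 38 and added 9, 1 CPM in place of 10 kept 47 and added 7, and equal weight to clusters kept 7 of the 16 it could give. In keratinocytes the 1 member higher at day 7 became 0 with totals without mitochondrial and ribosomal genes, with the mean of CPM per cell and with equal weight to clusters, and the 3 lower members became 1 with the mean of CPM per cell. At day 42 equal weight to clusters turned 2 higher into 1 and 4 lower into 0. Equal weight without clusters 12 and 17, chosen after seeing the data, gave the same counts as equal weight to 9 clusters (0 and 2 at day 7, 1 and 0 at day 42). In fibroblasts the 1 member lower at day 42 became 0 under the doublet scores and the mean of CPM per cell. Equal weight needs 2 clusters of 50 or more cells on both days, and could not be given for fibroblasts, lymphatics, blood endothelium, or colonocytes at day 7.

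Some log2 ratios that were past 2-fold changed sign, and only these are listed. With smaller ratios included, 79 of 95 kept their sign without the 10 top cells and 85 of 95 under the doublet scores. With equal weight to clusters, Igfbp2 in keratinocytes at day 42 against day 7 became 0.0098 (0.0886 without clusters 12 and 17) in place of -1.42. Without cluster 27, left out after seeing the data, Igfbp4 in blood endothelium at day 7 against day 0 became -0.67. Under the doublet scores Igfbp2 in lymphatics at day 42 against day 0 became 0.19, and at day 42 against day 7 Igfbp3 became -0.34 in lymphatics and -0.44 in colonocytes. Without the 10 top cells, at day 42 against day 7, Igfbp3 in lymphatics became -1.48 and Igf1 in blood endothelium became -0.38. Equal weighting changes the clusters' shares and leaving out cluster 27 removes its cells; for the others the cause was not tested. Depth limits several values in lymphatics, blood endothelium, T cells and macrophages, which rest on fewer than 30 UMIs. No paired analysis was possible because each day had 1 library.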

Other observations

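Some further genes of the lists had UMIs in other types. Enteroendocrine cells, the hormone cells of the gut, had 598 CPM of the protease Pappa2 at day 0, from 78 cells, and the later days had 12 cells each. In blood endothelium Insr, the insulin receptor, had 140, 266 and 306 CPM at days 0, 7 and 42, and the imprinted gene Mest had 14.2, 79.1 and 0 CPM, with 72.8% of its day 7 UMIs in 10 cells. Neutrophils had 141 CPM of Igf1r at day 7 and 214 CPM at day 42.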
